A study of Mus musculus with 3 samples.

Results

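The genes described here encode the proteins of the cytosolic ribosome (symbols starting with Rpl, Rplp or Rps, and Rpsa) and of the mitochondrial ribosome (Mrpl and Mrps). Members were picked by a pattern in their names, with earlier results of these data known. Of 178 matching rows, 6 named as pseudogenes (-ps) and 10 of the S6 kinase family were left out, which gave 162 genes of 23337, 86 cytosolic and 76 mitochondrial. Every gene had 1 row. RNA came from CD4+ T cells labelled Th1, the interferon gamma producing helper subset, of wild-type C57/Bl6j mice aged 7 weeks. The lymphoid group had 2 libraries, titled spleen, whose tissue label joins spleen, lymph nodes and draining lymph nodes. The tumour group had 1 library, from tumours of B16-F10, a melanoma line that grows in C57BL/6 mice. Whether the libraries came from separate or pooled animals is not in the labels. With 1 tumour library, the p-values rest on how far the 2 lymphoid libraries differ, pooled in part over genes. They do not measure how far tumour libraries vary, and the variation they use may be technical.

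Values are FPKM (fragments per kilobase of transcript, relative to the fragments sequenced), a unit inferred from the files, divided by a median-of-ratios size factor for each library. Levels below are scaled FPKM. Changes are log2 differences of scaled FPKM plus 1, tumour against the mean of the lymphoid libraries, and they understate the change of low genes. Estimated depth was 11460000 and 15630000 fragments in the lymphoid libraries and 3270000 in the tumour library. The 8 T cell markers had summed levels of 695.8, 709.2 and 667.4 in lymphoid library 1, lymphoid library 2 and the tumour library, with 0 calls. The 6 Th1 markers summed to 167.2, 154.7 and 258.5, with Ifngr1 called higher and Ifng lower. The higher sum in the tumour library rests on Ifngr1 (36.3, 32.6 and 141.6). Of the other markers, Tbx21, Ifng and Cxcr3 were below both lymphoid libraries, and Il12rb2 and Stat4 above both. Among other cell types, the 8 myeloid markers with a row summed to 1.44 and 1.33 in the lymphoid libraries and 9.99 in the tumour library. Itgam was called higher (1.01, 0.674 and 3.95), C1qa was at 0, 0.0946 and 2.55, and C1qb was at 0 in each library. The 7 melanocyte markers summed to 1.35, 1.49 and 3.35 (Mlana at 0 in each library), and the 2 CD8 genes to 0.558, 0.814 and 5.27. The 5 B cell markers summed to 0.757, 0.530 and 0.646, with 4 of them at 0 in the tumour library. The part of these cells in the results below was not tested.

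The cytosolic ribosome translates nuclear-encoded mRNAs, and its protein genes are among the most strongly transcribed in dividing cells. Their mRNAs begin with a terminal oligopyrimidine tract (TOP), a C followed by C and T letters, through which mTOR and the RNA-binding protein LARP1 set their translation. The mitochondrial ribosome makes only the few proteins encoded in mitochondrial DNA. Its proteins are all encoded in the nucleus and imported, and activated T cells need its output for respiration. The subunits are built from different genes in the 2 ribosomes, so the sets share no member.

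The start sites of both sets show this difference in sequence. RefSeq windows of 300 bases (GRCm38.p6, 250 bases before to 50 after the gene start) were found for 65 cytosolic and 67 mitochondrial members. A C at the start followed by 4 letters that are each C or T was present in 13 of the 65 cytosolic genes (20.0%) and in 0 of the 67 mitochondrial genes, against 3.01% of all 27025 genes with a window. Within 5 bases of the start the shares were 44.6%, 25.4% and 21.2%, so a loose search separates the sets less. A RefSeq start can lie some bases from the start used in these cells. The windows below show 15 bases before and 15 from the start, 5′ to 3′, with the run of C and T from the start in capitals. The first 4 are cytosolic genes with the tract, and the last 4 are called mitochondrial genes described below, 2 lower and 2 higher in the tumour library.
Rpl14 (chr9:120571502-120571531, plus strand): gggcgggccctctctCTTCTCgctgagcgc
Rpl35 (chr2:39005117-39005146, minus strand): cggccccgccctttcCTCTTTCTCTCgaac
Rps6 (chr4:86857353-86857382, minus strand): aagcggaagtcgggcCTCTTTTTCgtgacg
Rps27 (chr3:90213634-90213663, minus strand): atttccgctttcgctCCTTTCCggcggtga
Mrpl46 (chr7:78783075-78783104, minus strand): cgcgttgcctcatgggaacctggggttggc
Mrps15 (chr4:126046913-126046942, plus strand): atccggaaccgatccattcgctcagccctc
Mrpl34 (chr8:71464911-71464940, plus strand): gaactacatttcccagaaggcattgtcaag
Mrps31 (chr8:22411325-22411354, plus strand): cggaatccaaaaggagcggaacagtgcagg
Of these, the cytosolic genes, picked for the tract, start on a C with at least 4 more pyrimidines. Each of the mitochondrial ones starts on a purine. These examples do not stand for their sets. The called Mrpl40 and Mrpl14 start on a pyrimidine, and the cytosolic Rpl10 and Rpl23 on a purine.

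Motifs of factors known to act on mitochondrial genes were searched in the whole windows, on both strands. The ETS motif CCGGAAG was in 40.0% of cytosolic and 35.8% of mitochondrial windows, against 9.93% of all. The YY1 motif AAGATGGC was in 9.23% and 17.9%, against 3.19%, and the NRF1 motif GCGCATGC in 4.62% and 11.9%, against 3.05%. The ETS and YY1 words can overlap by 3 letters, and no member held that joined form. Among the genes tested for expression the shares were 23.9%, 6.39% and 6.86%. A match is a description of the letters and not evidence of binding.

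Cytosolic ribosomal protein mRNAs were very abundant in each library and their levels kept together. The median tested member was at 337.7 and 370.8 in the lymphoid libraries and 330.9 in the tumour library. Of all FPKM outside small RNA rows, cytosolic members held 19.5% and 21.5% in the lymphoid libraries and 18.5% in the tumour library, a share that does not depend on the scaling. Mitochondrial members were far lower. Their median was 5.58 and 5.88 in the lymphoid libraries and 5.50 in the tumour library, and they held 0.347%, 0.364% and 0.308% of the same total. The ratio of the medians was 60.5 and 63.0 in the lymphoid libraries and 60.2 in the tumour library. Summed over all members the ratio was 56.1, 59.1 and 60.0. The balance between the 2 ribosomes in the tumour library thus differed little from that in the lymphoid ones, and with 1 tumour library it was not tested. In these bulk samples, fewer cells with a transcript and less RNA per cell cannot be told apart.

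**Figure D1:**
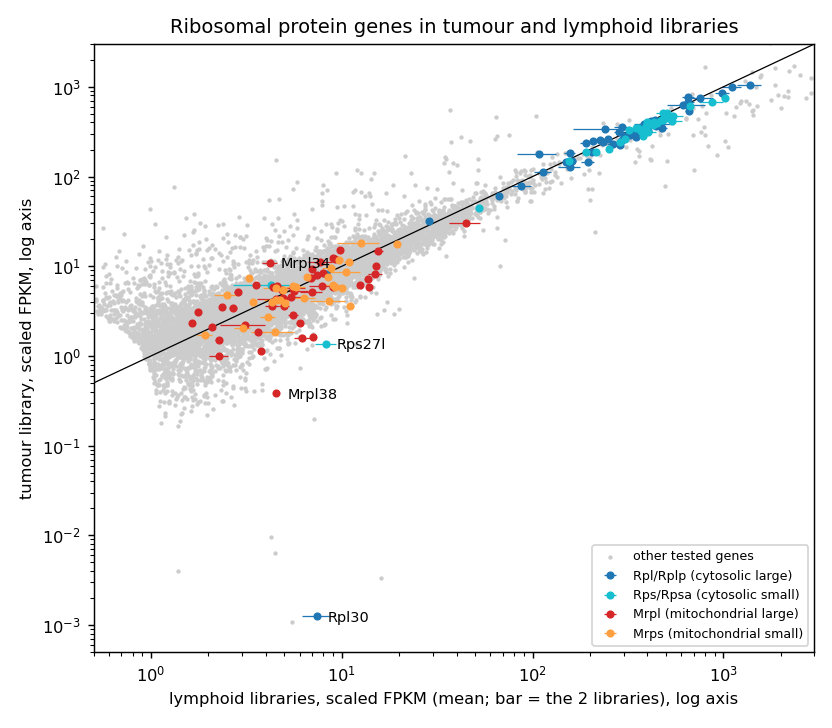
Scaled FPKM in the tumour library (vertical, log axis) against the mean of the 2 lymphoid libraries (horizontal, log axis), with bars from one lymphoid library to the other, the line of equal levels, and other tested genes in grey (values of 0 or beyond the axes are not drawn). Cytosolic members sit near the line at high levels, apart from Rpl30 and Rps27l, and mitochondrial members scatter around it at low levels.

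Of the 86 cytosolic members, 82 had a mean of at least 1 FPKM and were tested. By limma with Benjamini-Hochberg adjustment over 9800 genes, 0 were higher and 2 were lower (Rpl30 and Rps27l). Over all tested genes 12.7% were called higher and 9.17% lower, 21.9% in all. The median log2 change was -0.01 for all tested genes and -0.11 for non-member protein-coding genes at a lymphoid mean of at least 50. For the tested cytosolic members the median was -0.13, with quartiles of -0.21 and 0.00. It was -0.05 against lymphoid library 1 and -0.19 against lymphoid library 2. The lymphoid libraries themselves differed by a median of 0.15 over these genes, which is more than the tumour library's shift from their mean and less than its shift from lymphoid library 2. Without Rpl30 and Rps27l the changes ran from -0.46 to 0.74.

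The narrow spread was also seen beside other abundant genes. At a lymphoid mean of at least 50, 76 of 77 cytosolic members (98.7%) were within 1.5-fold of the lymphoid mean, and the interquartile range of their changes was 0.21. Among the 204 other protein-coding genes at that level, 92.2% were within 1.5-fold, the interquartile range was 0.34, and 3.43% were called. Of the 77 members 0 were called, close to the share among those protein-coding genes. The median SE was 0.22 for these members against 0.16 for all tested genes, and the smallest called change at this level was 0.75.

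**Figure D2:**
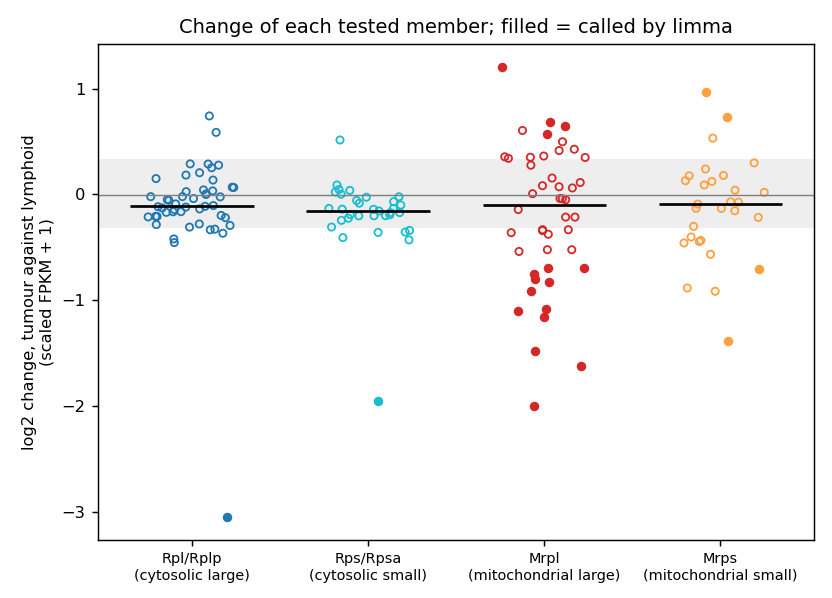
Log2 change of each tested member (points, filled where called), with the median of each set (black line) and the quartiles of all 9800 tested genes (grey band). The set medians of -0.11, -0.16, -0.10 and -0.09 lie close together, while mitochondrial points spread far wider than cytosolic ones.

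Small-subunit members lay low more often than large-subunit members. The tumour library was below both lymphoid libraries for 25 of 33 tested Rps genes (75.8%) and 24 of 49 Rpl genes (49.0%), against 42.6% of all tested genes. It was above both for 2 and 12 of them, against 41.3%. The sizes were small, with medians of -0.16 and -0.11, and the difference between the subunits was not tested.

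Among large-subunit genes, the acidic stalk protein gene Rplp2, which helps recruit elongation factors, was the most abundant. It was at 1185 and 1570 in the lymphoid libraries and 1057 in the tumour library, a change of -0.37 that was not called. Rpl39, a small protein of the exit tunnel, was at 504.8 and 449.0 in the lymphoid libraries and 346.8 in the tumour library. It changed by -0.46 (limma adjusted p = 0.202), and Rpl27 by -0.42. These tumour values lay below both lymphoid libraries, outside the range between them. Rpl23a, the next most abundant, was at 985.8, 1233 and 983.5 in the same order.

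The 2 largest positive changes in the large subunit, neither of them called, were those of Rpl26 and Rpl34. Rpl26, also near the exit tunnel, was at 133.3 and 82.7 in the lymphoid libraries and 176.2 in the tumour library. Its change was 0.74 with SE 0.32 (limma adjusted p = 0.158). Rpl34 was at 162.4 and 316.9 in the lymphoid libraries and 341.1 in the tumour library. Its change was 0.59 with SE 0.41 (limma adjusted p = 0.355). Both exceeded each lymphoid library, but the lymphoid libraries were over 1.5-fold apart for them, as they were for 5 of 82 cytosolic members, against 7.78% of all tested genes (2.02% at 2-fold). Rpl14, shown above with its tract, had closer lymphoid values and was at 177.7, 205.1 and 233.4 (change 0.29, not called).

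Rpl34 shares sequence with a pseudogene row that the name rule left out. Rpl34-ps1 was at 380.0 and 342.2 in the lymphoid libraries and 193.6 in the tumour library, so it was lowest where Rpl34 was highest. Their sum was 542.4, 659.1 and 534.7, and its log2 difference was -0.02 against lymphoid library 1 and -0.30 against lymphoid library 2. Rpl34 alone had 1.07 and 0.11. How fragments were divided between near-identical copies is not given in the sources used here, so the value of Rpl34 is uncertain. Summing each of the other 5 pseudogene rows with its gene kept the gene's direction against both lymphoid libraries.

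Among small-subunit genes, Rps27, a zinc-finger protein of the small subunit, was at 1007 and 1025 in the lymphoid libraries and 753.9 in the tumour library, a change of -0.43 (adjusted p = 0.226). Rps7 was at 362.6, 397.6 and 285.7 (change -0.41), and Rps23, next in abundance, at 745.0, 991.5 and 671.2. The tumour value was the lowest for each of them. Rps26, of the mRNA exit channel, was at 322.0, 318.4 and 330.7, a change of 0.05. Rps6, the substrate of the S6 kinases, was at 327.5, 364.7 and 345.9, between the lymphoid values. Rps19bp1, at 2.69, 5.84 and 6.17, is included by its name, but encodes a binding partner of Rps19 and not a ribosomal protein.

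The 2 called cytosolic genes, Rpl30 and Rps27l, were among the 4 tested members of lowest lymphoid mean, with Rpl7l1 and Rps19bp1, which were not called. Rpl30 (ENSMUSG00000058600.13, chromosome 15, 34440505 to 34443640, GRCm38), a conserved large-subunit protein, was at 8.59 and 6.19 in the lymphoid libraries and 0.00125 in the tumour library (change -3.05, SE 0.21, limma adjusted p = 0.00101). It ranked 81 of the 86 members by lymphoid mean. Its lymphoid mean was 7.39, where the median of the tested cytosolic members was 357.2. At the lymphoid level about 8.0 tumour fragments would be expected, and the tumour value corresponds to about 0.00135. That is no whole count, so the value of Rpl30 is uncertain. Whether this row measures the mRNA of Rpl30 was not tested. Rps27l (ENSMUSG00000036781.13, chromosome 9, 66946086 to 66949516) is a paralogue of Rps27 and a known p53 target. It was at 9.28 and 7.20 in the lymphoid libraries and 1.36 in the tumour library. Its change was -1.96 (SE 0.19, limma adjusted p = 0.00234), on about 1.3 fragments of 7.8 expected. Both calls ended when the counting error of the tumour library was added to the SE (adjusted p = 0.116 and 0.299).

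Paralogue pairs had a dominant and a minor member in each library. Rpl22, needed for the development of conventional T cells, was at 76.7, 97.5 and 78.5, and its paralogue Rpl22l1 at 28.5, 28.9 and 31.6. Rpl36a was at 265.5, 303.8 and 315.1, and Rpl36al at 102.2, 125.1 and 113.4. Rpl7 was at 361.1, 401.9 and 380.6, and Rpl7l1 at 7.90, 8.67 and 8.13. None of these 6 genes was called, with changes from -0.14 to 0.15, and the minor member stayed the lower one. The paralogues of Rpl3, Rpl10 and Rpl39 that are known from muscle and testis were not tested for lack of signal. Rpl39l was listed at 0 in each library, Rpl3l at 0, 0 and 0.534, and Rpl10l at 0, 0.0504 and 0.543, while Rpl3 and Rpl10 were at 285.0 and 331.1 in the tumour library. Rpl3l and Rpl10l rest on 1.4 and 1.1 estimated tumour fragments. Rps4y2, annotated in GENCODE as the transcribed pseudogene Rps4l, was at 0.582, 0.305 and 0.596 and was not tested either, beside Rps4x at 417.6, 398.1 and 391.6.

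Mitochondrial members spread far more widely around a similar centre. Of 76 members 75 were tested (Mrpl17 was under the filter), and limma called 6 higher (8%) and 14 lower (18.7%), 20 in all (26.7%). The background was 12.7% higher, 9.17% lower and 21.9% in all. Their median change was -0.09, close to that of cytosolic members. The interquartile range was 0.73, against 0.22 for the tested cytosolic members and 0.63 for all tested genes. Between the lymphoid libraries the ranges were 0.23 for cytosolic and 0.24 for mitochondrial members. Those libraries were deeper: the median mitochondrial member had about 112.8 and 160.9 fragments there and 13.1 in the tumour library, so the ranges cannot be compared apart from depth. Across the 75 genes Pearson's r of log2 levels was 0.952 between the lymphoid libraries, and 0.690 and 0.714 between each of them and the tumour library. Across the 82 cytosolic genes it was 0.988, 0.958 and 0.971. These correlations are across genes, share the tumour library, and mix level and depth.

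The lower calls lay mostly in the large subunit, with subunits assigned by gene symbol alone. Of 46 tested Mrpl genes 4 were higher and 12 lower (26.1%), and of 29 tested Mrps genes 2 were higher and 2 lower (6.90%). The difference between the subunits was not tested. By fold alone, 17 mitochondrial members (22.7%) were at least 1.5-fold lower than each lymphoid library, against 12.7% of all tested genes, and 7 (9.33%) were at least 1.5-fold higher, against 15.6%. At 2-fold the counts were 9 lower (12.0%, background 6.32%) and 2 higher (2.67%, background 8.76%). Cytosolic members had 2 lower and 0 higher at either fold.

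The largest falls were those of Mrpl38, Mrpl46 and Mrpl40, which encode proteins of the large subunit. Mrpl38 (ENSMUSG00000020775.13, chromosome 11, 116131817 to 116138868) was at 4.51 and 4.58 in the lymphoid libraries and 0.383 in the tumour library, a change of -2.003 (SE 0.15, limma adjusted p = 0.00111). Mrpl46 (ENSMUSG00000030612.6, chromosome 7, 78775236 to 78783531) was at 7.16, 7.01 and 1.62, and Mrpl40 (ENSMUSG00000022706.16, chromosome 16, 18872018 to 18876862) at 5.59, 6.81 and 1.57. Their changes were -1.63 and -1.48. The lymphoid values of each gene lay close together and the tumour value was several-fold below them. The tumour values of the 3 genes corresponded to about 1.0, 3.5 and 3.8 fragments. At the lymphoid level 12.1, 15.2 and 15.05 would be expected. None of the 3 calls held when the counting error of the tumour library was added to the SE.

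Mrps15 had the largest fall in the small subunit, and further large-subunit genes fell by less. Mrps15 (ENSMUSG00000028861.13, chromosome 4, 126046925 to 126055532) binds the small-subunit rRNA. It was at 11.6 and 10.5 in the lymphoid libraries and 3.59 in the tumour library. Its change was -1.39 (SE 0.16, limma adjusted p = 0.00411). Mrpl1, of the stalk near the tRNA exit site, was at 3.78, 3.75 and 1.13 (change -1.16), and Mrpl24 at 13.8, 13.9 and 5.90 (change -1.10). Mrpl22, of the exit tunnel, was at 5.79, 6.28 and 2.33 (change -1.08). In these genes too the tumour value lay well below both lymphoid ones. With the counting error added to the SE, none of them was called. The other lower calls, Mrpl42, Mrpl23, Mrpl33, Mrpl39, Mrps35, Mrpl14 and Mrpl49, changed by -0.91 to -0.69. Of these Mrps35 rested on the most tumour fragments, about 45.0 (9.43, 10.5 and 5.70, change -0.71), while Mrpl14 rested on about 1.2. Mrps36, since assigned to the oxoglutarate dehydrogenase complex, was at 6.81, 10.3 and 4.10, and Mrps17 at 5.58, 3.34 and 1.83. Neither was called (adjusted p = 0.0586 and 0.0630).

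The higher calls were led by Mrpl34 (ENSMUSG00000034880.7, chromosome 8, 71464959 to 71465747), a small large-subunit protein. It was at 4.57 and 3.82 in the lymphoid libraries and 10.97 in the tumour library, a change of 1.21 (SE 0.17, limma adjusted p = 0.00752). Mrps31 (ENSMUSG00000031533.4, chromosome 8, 22411361 to 22429665), specific to mitochondrial ribosomes, was at 3.26, 3.30 and 7.35 (change 0.96, SE 0.14, limma adjusted p = 0.00993). Mrps11 rose by 0.73, Mrpl47 by 0.69, Mrpl37 by 0.65 and Mrpl35 by 0.57. The 6 tumour values all lay above both lymphoid values, on about 9.6 to 33.1 fragments. With the counting error added to the SE, none of the 6 genes was called.

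**Figure D3:**
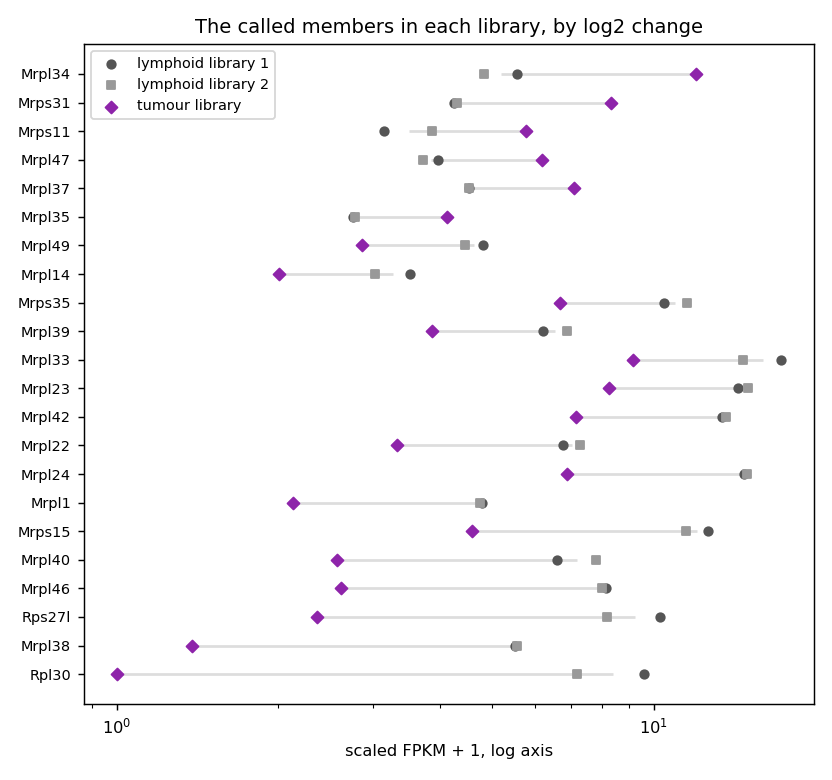
Scaled FPKM plus 1 (log axis) of the 22 called members in each of the 3 libraries, ordered by log2 change, with a grey line from the lymphoid mean to the tumour library. For Mrpl38 and Mrpl46 the lymphoid points nearly coincide and the tumour point lies far to the left, and for Mrpl34 and Mrps31 it lies to the right.

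The 2 most abundant members of each mitochondrial subunit were not called. Mrpl52 was at 36.2, 52.9 and 30.2 (change -0.52), Mrps21 at 19.7, 19.4 and 17.7 (change -0.13), Mrpl18 at 14.4, 16.4 and 14.9 (change -0.04) and Mrps5 at 9.45, 15.7 and 18.1 (change 0.53). The 3 Mrps18 paralogues, which occupy different places in the ribosome, were each measured. Mrps18a was at 8.72, 9.74 and 5.90, Mrps18b at 5.13, 3.90 and 4.21 and Mrps18c at 7.72, 10.2 and 6.19. Mrps18a and Mrps18c lay below both lymphoid libraries, by -0.57 and -0.46, without a call.

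Depth differed sharply between the 2 sets. The median tested cytosolic member rested on about 437.7 tumour fragments, with a counting error of 4.78% of the value, and the median mitochondrial member on 13.1 fragments, with 27.6%. When this error was added to the SE, 0 cytosolic and 0 mitochondrial members were called, against 3.61% of all tested genes. At an unadjusted p under 0.05, without that error, 2 of 82 cytosolic and 29 of 75 mitochondrial members passed, against 3626 of all 9800 tested genes. Grouped by the fragments expected at the lymphoid level, 42 mitochondrial members had 10 to 29, and of these 11 were lower (26.2%) and 3 higher (7.14%). Among all 3055 tested genes in that range 11.2% were lower and 10.2% higher. Of the 21 members under 10 expected fragments 2 were lower (9.52%) and 3 higher (14.3%), against 10.4% and 30.2% of all tested genes there. Of the 11 from 30 to 99, 1 was lower (9.09%) and 0 were higher, against 7.33% and 5.17%. The class of 10 to 29 fragments held 42 of the 75 members and 11 of the 14 lower calls. The differences from all genes were not tested.

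**Figure D4:**
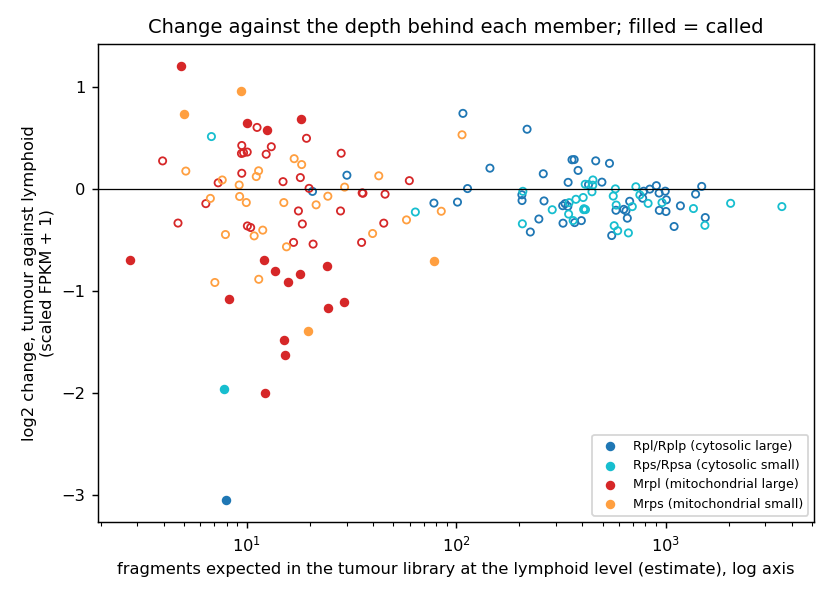
Log2 change of each tested member (filled where called) against the estimated number of fragments expected in the tumour library at the lymphoid level (log axis). Nearly all mitochondrial members lie under 100 fragments and spread widely, while 75 cytosolic members at 100 and over form a narrow band that holds 0 calls.

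Transcript length was recorded because short transcripts are hard to measure. The median length of the principal transcript was 705 nt in cytosolic and 1219 nt in mitochondrial tested members, against 2658 nt for all tested genes. Across members, length and change were barely related (Spearman's rho 0.10 over 82 cytosolic and 0.14 over 75 mitochondrial genes). By longest transcript, the 308 tested genes under 600 nt had a median change of -0.75, whereas the 8 cytosolic members of that class had -0.16. By principal transcript, the medians under 600 nt were -0.39 for 437 genes, -0.14 for 31 cytosolic members and -0.52 for 4 mitochondrial members. Both classes of all tested genes include rows that are not protein-coding.

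Subunits that carry other names were described from a separate list. Of the cytosolic ones, Fau, made as a fusion with a ubiquitin-like sequence, was at 485.2, 571.0 and 552.6. Gnb2l1, which encodes the scaffold RACK1, was at 265.3, 236.9 and 200.03, and neither was called. Of 7 mitochondrial ones 0 were higher and 2 lower, where all tested genes had 12.7% higher and 9.17% lower. Ict1, which rescues stalled mitochondrial ribosomes, was at 10.8 and 12.6 in the lymphoid libraries and 3.94 in the tumour library. Its change was -1.36 (limma adjusted p = 0.00538, or 0.106 with counting error added). Chchd1 was at 12.9, 15.3 and 7.05 (change -0.90), while Dap3, a GTP-binding small-subunit protein, was at 3.83, 3.46 and 4.37 and was not called.

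Genes of cytosolic translation were described from 2 lists, with the same shares over all tested genes (12.7% higher and 9.17% lower). The first held 23 genes, mostly of translation factors, taken to have oligopyrimidine mRNAs. Their tracts were not checked here. Of these genes 0 were called, and their median change was -0.11. Tpt1, the most abundant, was at 1476, 1660 and 1336, and the elongation factor gene Eef2 at 224.2, 237.0 and 224.8. Of 16 genes of cap-dependent initiation and mTOR control 1 was higher and 0 lower. Rheb, the GTPase that activates mTOR, was at 5.83 and 5.33 in the lymphoid libraries and 14.0 in the tumour library. Its change was 1.19 (limma adjusted p = 0.00648, or 0.0829 with counting error added). Larp1, which binds oligopyrimidine mRNAs, was at 13.2, 13.7 and 15.9, Mtor at 3.76, 4.13 and 3.62 and Myc at 6.65, 6.07 and 5.91, none of them called.

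Genes that build ribosomes were described from 2 lists, to be read against 12.7% of all tested genes higher and 9.17% lower. Of 43 tested assembly genes 0 were higher and 4 lower, a share of lower calls near that of all genes. They were Pno1 (-1.51), Imp3 (-1.47), Emg1 (-0.94) and Nop2 (-0.86), which act in processing the precursor rRNA and in methylating it. Their median was -0.04, and Npm1, the abundant nucleolar chaperone, was at 114.7, 132.8 and 137.6 and was not called. Of 26 RNA polymerase I and III genes 1 was higher (Taf1d, 0.80) and 2 were lower (Polr3c, -0.81, and Gtf3a, -0.77).

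Genes of mitochondrial translation were described from 4 lists, against the same shares of 12.7% higher and 9.17% lower over all tested genes. Of 16 tested translation factor genes 2 were higher (Mrrf, 0.91, and Gfm1, 0.65) and 3 lower (Tsfm, -1.32, Slirp, -1.24, and Mtif2, -0.75). Gfm1 and Mrrf act in elongation and ribosome recycling, and Tsfm and Mtif2 in elongation and initiation. Of 16 tested mitochondrial aminoacyl-tRNA synthetase genes, which charge the mitochondrial tRNAs, 0 were higher and 6 lower, led by Cars2 (-1.53) and Yars2 (-1.43). These 6 were at 0.287 to 1.71 in the tumour library, and the median tested member of the list rested on 8.9 tumour fragments. Of 20 assembly and rRNA modification genes 2 were higher (Ddx28 and Nsun4) and 2 lower (Mtg1 and Trub2). Of 10 tested regulators 3 were higher, namely Gabpb1 (0.85), Tfb2m (0.83) and Nrf1 (0.67), and Gabpa, the DNA-binding partner of Gabpb1 at ETS motifs, was lower (-0.75). With counting error added, 0 genes of these lists were called.

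**Figure D5:**
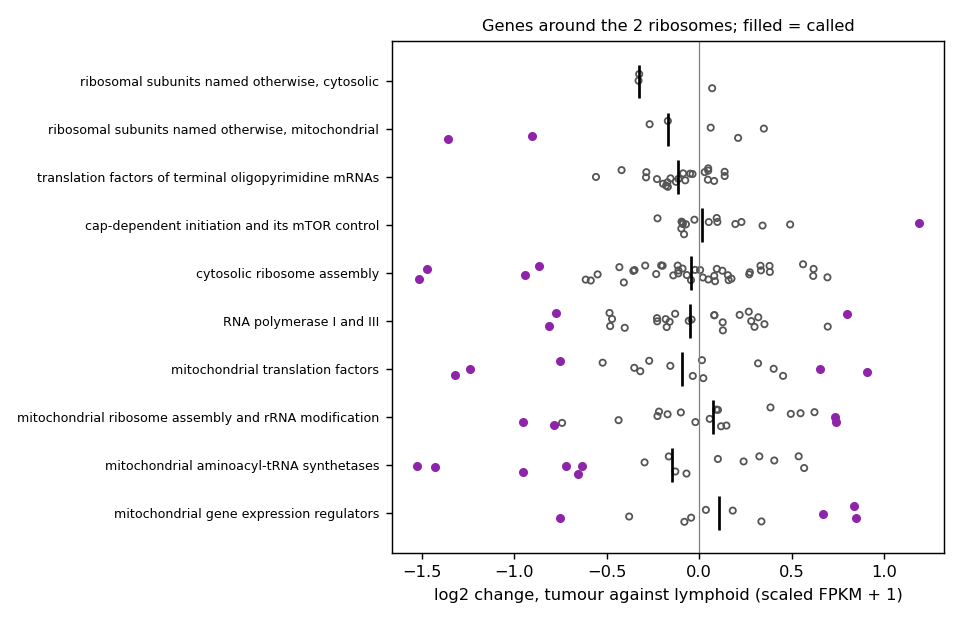
Log2 change of each tested gene in 10 lists around the cytosolic and mitochondrial ribosomes (points, filled where called), with list medians as black bars. The medians lie between -0.32 and 0.11, and the list of genes taken to have oligopyrimidine mRNAs has no filled point.

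The direction of many of these genes depended on the scaling. As deposited, the median change of all tested genes was -0.96, and 79 of 82 cytosolic and 66 of 75 mitochondrial members were called lower, against 77.8% of all genes. None of the members was called higher, against 4.74% of all genes. Scaled by library totals, the median was 0.62, and 25 cytosolic and 27 mitochondrial members were called higher, against 42.1%. There 2 cytosolic and 5 mitochondrial members were called lower, against 2.94%.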

How the data were processed

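RNA was measured by stranded, ribosomal RNA depleted sequencing, per the labels' protocols. The authors deposited 1 value per gene row and library, taken as FPKM (unit inferred, since the sums differ between libraries). The submitters' processing notes name mm10, kallisto and DESeq2 without roles. The program behind the values is not given in the sources used here. From 23832 rows the row of highest mean was kept per symbol. Size factors (1.29, 1.33 and 0.58) came from 9660 of the 9800 tested genes (deposited mean of 1 FPKM or more) that were above 0 in each library.

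Log2(scaled FPKM + 1) was tested with limma (version 3.58.1, under R 4.3.3) using a trended prior, with 1 residual degree of freedom, Benjamini-Hochberg adjustment and calls under 0.05. The tumour library is assumed to vary like the lymphoid ones. On simulated data of 9800 genes with 200 changed, the test found 99.4% of genes at a log2 change of 2 (43.8 false calls a draw, 5 draws) and 36.1% at a change of 1 (31.6 false calls). The simulation gave each library the lymphoid spread, added no counting error for the shallower tumour library, and changed only genes with a lymphoid mean above 5. Its shares therefore do not hold for members with few tumour fragments. One fragment was the FPKM times length shared by most single-transcript genes within 3% (112 genes in the tumour library), and fragments use the shortest APPRIS principal transcript of GENCODE M21. The members and lists were chosen with earlier results of these data known. Named genes were the called members, the 3 largest changes each way and the 2 most abundant of each set, members under 1 fragment, paralogue pairs, and the called or most abundant genes of each list. Other named genes were picked after their values were seen (Rps6, Rpl35, Rpl34-ps1, Mrpl17, C1qa, Eef2, Npm1, Larp1, Mtor, Myc, Dap3, Fau, Gnb2l1). Alternatives were other scalings, filters, pseudocounts, added counting error, summed rows and leaving out each lymphoid library. One gene that the rule names is not reported here.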

Additional observations from a re-analysis of the deposited data

How the results depend on the processing

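No paired analysis was possible because the tumour group has 1 library and its title carries no number. As deposited, 465 genes were higher and 7620 lower, 79 cytosolic and 66 mitochondrial members were lower and 0 mitochondrial members higher, the medians were -1.30 and -1.06, and 79 and 66 members were at least 1.5-fold lower. With library totals, 4122 genes were higher and 288 lower, 25 and 27 members higher, 5 mitochondrial members lower, 5 mitochondrial members 1.5-fold lower, and the medians 0.61 and 0.52. With no filter, 6362 genes were higher and 512 lower, 2 cytosolic members were higher and 0 lower, and 3 mitochondrial members were higher and 8 lower. At a mean of at least 5 FPKM, 211 genes were higher and 191 lower, 1 mitochondrial member was higher and 7 lower, and the mitochondrial median was -0.14. With a pseudocount of 5 that median was -0.044. With counting error added, 324 genes were higher and 30 lower, with 0 cytosolic members lower and 0 mitochondrial members higher or lower, in limma. Size factors from every gene above 0, added after seeing the data, shifted the median of all genes to -0.25 and gave 1926 lower genes, medians of -0.42 and -0.31, 7 and 26 members 1.5-fold lower, and 2 higher and 22 lower mitochondrial members. The 1.5-fold counts in this paragraph, and the 2 higher members here, stand without the same count over all genes. All genes shift with the scaling, so these counts are not results about the members. Without one or the other lymphoid library, which leaves no test, the medians ran from -0.19 to -0.05 (cytosolic) and from -0.13 to -0.07 (mitochondrial). Relative to the median gene, small uncalled changes turned sign as deposited for Rpl22l1 (-1.003), Rpl36a (-1.03), Rpl36al (-1.16), Rpl7 (-1.18) and Rps26 (-1.13). They did so with library totals for Mrpl18 (0.66), Rpl3 (0.65) and Rpl7l1 (0.64), with upper quartile scaling for Rpl7 (-0.039), and with size factors from every gene for Rpl36al (-0.29) and Rpl7 (-0.29). The causes were not tested. Mitochondrial members with few tumour fragments limit what can be said: the median one rested on 13.1.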
